A study of Mus musculus with 106 samples.

Results

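The genes of the proteasome were examined in 11 mouse tissues kept at 10 °C, 22 °C or 34 °C. A gene was included when its symbol started with Psma, Psmb, Psmc, Psmd, Psme, Psmf or Psmg followed by a digit, and pseudogenes were left out. The rule used no measured value and took 49 genes from count tables that list between 21647 and 23420 genes. Of these, 31 were standard subunits, comprising 7 of the alpha ring, 4 beta ring subunits without a catalytic site, 3 catalytic subunits, 6 ATPases and 11 non-ATPase subunits of the regulatory particle. The others were 3 immunoproteasome subunits, 4 activators, 1 inhibitor, 3 chaperones of the regulatory particle, 4 chaperones of core assembly, 2 subunits restricted to the testis or the thymus, and 1 gene, Psmc3ip, which shares only the first letters of its name with the family and encodes a recombination factor.

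The proteasome degrades proteins that carry ubiquitin chains. Its core particle is a barrel of alpha and beta rings whose inner face holds the catalytic subunits Psmb5, Psmb6 and Psmb7, and the regulatory particle, with its ring of ATPases, recognises, unfolds and feeds in the substrate. Under interferon, and constitutively in lymphoid cells, Psmb8, Psmb9 and Psmb10 take the places of Psmb5, Psmb6 and Psmb7 and form the immunoproteasome, which shapes the peptides displayed by MHC class I molecules. In brown fat, proteasome capacity is known to be kept high by the transcription factor Nfe2l1, which responds to cold.

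The series holds 106 RNA-seq libraries in 31 groups of male wild-type C57BL/6 or C57BL/6J mice, which were 8 weeks old at the start. Cold-exposed mice spent 2 weeks at 10 °C after 5 days each at 18 °C and 14 °C and were 11 weeks old (quadriceps 12 weeks), warm-exposed mice spent 4 weeks at 34 °C and were 12 weeks old, and each experiment had its own controls at 22 °C. At 10 °C the tissues were interscapular brown fat (iBAT), inguinal subcutaneous fat (ingSAT), perigonadal visceral fat (pgVAT), liver, ileum, spleen, brain, hypothalamus, bone marrow, spinal cord and quadriceps. At 34 °C they were iBAT, liver, ileum, brain (labelled as without hypothalamus in this set) and quadriceps. Groups held 3 libraries, except bone marrow with 6, spinal cord with 5, and the quadriceps controls with 6, which both quadriceps comparisons used. Most libraries pooled 2 mice; bone marrow and spinal cord libraries were of single mice. For warm iBAT and its controls the study's design list gives single mice in all but 1 library, while its methods give pools. Cold and warm mice came from different suppliers. Bone marrow, spinal cord and the 34 °C experiment shared a kit and a sequencing site. Both differed in the count table of 8 tissues, which holds the 10 °C experiment except bone marrow, spinal cord and quadriceps. Each group was therefore compared only with 22 °C libraries of its own table. In quadriceps this does not separate the suppliers, since the controls of the cold and of the warm experiment entered both comparisons together. The study's methods place cold quadriceps at the sequencing site of the warm set but do not list it under the same kit. The quadriceps controls may therefore differ in kit as well.

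Total counts ranged from 4262403 to 62880248 per library with a median of 21585677, and the lowest were 2 of the pgVAT libraries at 22 °C. The defining markers of each tissue were present in its libraries. Of the members, 46 passed the limit of an average log2 CPM (the count scaled to library size) above 0 in every comparison. Psmb11 passed it in none, Psma8 only in spleen and bone marrow, and Psmc3ip in all but the liver comparisons. A gene was called when its p from edgeR's quasi-likelihood test, adjusted over all genes tested, was below 0.05. These p-values set the difference between groups against the spread between libraries, most of which were pools of 2 mice.

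Promoter sequences are shown for 3 standard subunits called in fat, because they hold the antioxidant response element, the motif to which factors of the Nfe2l1 family bind with small Maf proteins. The element was searched as TGACNNNGC on both strands in the 250 bases before each RefSeq start (GRCm38.p6), and its match stands in capitals. The printed part ends where the GENCODE gene model begins. Psmb5 lies on the minus strand of chromosome 14, Psmd12 on the plus strand of chromosome 11 and Psmc6 on the plus strand of chromosome 14, and the printed stretches are chr14:54618023-54618245, chr11:107479278-107479483 and chr14:45329574-45329787.
Psmb5: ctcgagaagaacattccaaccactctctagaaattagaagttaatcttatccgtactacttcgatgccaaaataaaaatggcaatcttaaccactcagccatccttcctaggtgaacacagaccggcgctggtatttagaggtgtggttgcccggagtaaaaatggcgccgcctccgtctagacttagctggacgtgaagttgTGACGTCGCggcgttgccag
Psmd12: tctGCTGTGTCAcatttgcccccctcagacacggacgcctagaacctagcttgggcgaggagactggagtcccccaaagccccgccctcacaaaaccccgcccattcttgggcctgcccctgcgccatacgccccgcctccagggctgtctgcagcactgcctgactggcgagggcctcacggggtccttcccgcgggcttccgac
Psmc6: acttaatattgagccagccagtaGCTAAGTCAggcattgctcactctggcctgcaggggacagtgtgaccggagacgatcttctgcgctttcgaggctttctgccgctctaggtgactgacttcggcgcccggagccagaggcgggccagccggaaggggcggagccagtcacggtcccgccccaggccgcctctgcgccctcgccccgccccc

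RefSeq windows were matched for 41 of the members. The element occurred in 5 of their 44 windows (11.4%), those of Psmb5, Psmb6, Psmc6, Psmd12 and Psmd9, and in 10.2% of all 32851 windows. The interferon-stimulated response element, searched as GAAANNGAAA, occurred in 3 of the 44 windows (6.82%) and in 2.98% of all windows. The gamma-activated site, searched as TTCNNNGAA, occurred in 2 of the 44 windows against 7.02% of all, and one of them was Psmb8, with the letters TTCCCAGAA 89 bases before the start. Such a match describes letters in a window and is neither a binding site nor a cause.

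The plot of all fold changes shows the standard subunits in the 16 comparisons. In ileum and quadriceps at 34 °C they lay about evenly on both sides of zero (16 above and 15 below, and 15 above and 16 below), and in the others between 23 and 31 of the 31 had the same sign. Their median log2 fold change was 0.22 in iBAT, 0.28 in ingSAT, 0.18 in pgVAT and 0.24 in ileum at 10 °C. It was below zero in spleen (-0.16) and brain (-0.19) at 10 °C, and in iBAT (-0.38) and liver (-0.14) at 34 °C. In the other comparisons it lay between -0.10 and 0.10. The median in pgVAT was 0.05 without control replicate 3, 0.07 without cold replicate 2, 0.37 without control replicate 2 and 0.28 without cold replicate 1. It was -0.06 in spleen without control replicate 3, and -0.08 in brain without control replicate 2. Scaled by library totals, it was 0.06 in iBAT at 10 °C, -0.05 in brain at 10 °C, -0.11 in iBAT at 34 °C and -0.21 in liver at 34 °C. The median of all genes on that scale was -0.18, 0.10, 0.30 and -0.06 in the same order. Members were called in 4 comparisons only, namely iBAT, ingSAT and bone marrow at 10 °C and iBAT at 34 °C. Of the members, 16 were called in none of these, 19 in 1 and 14 in 2. The 16 include Psmb11, which was tested nowhere, and Psma8, tested among these only in bone marrow. The counts were not set beside those of all genes, whose called shares are given with each comparison below.

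**Figure D1:**
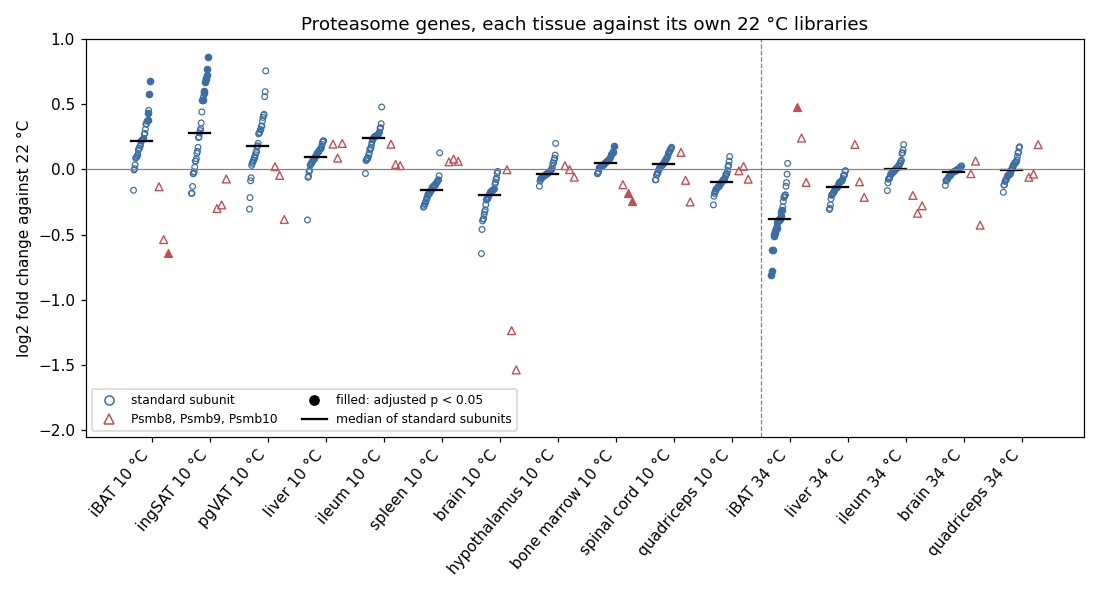
Log2 fold change of each standard subunit (circles) and of Psmb8, Psmb9 and Psmb10 (triangles) against the 22 °C libraries of the same tissue, for 11 tissues at 10 °C (left of the dashed line) and 5 at 34 °C. Filled symbols have an adjusted p below 0.05 and black bars are medians of the 31 standard subunits, which are highest in ingSAT at 10 °C (0.28) and lowest in iBAT at 34 °C (-0.38).

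In iBAT at 10 °C, 5 members rose and 2 fell. The risers were a catalytic subunit, an ATPase, a pair of non-ATPase subunits and a chaperone of the regulatory particle, while an immunoproteasome subunit and an activator fell. Among all 12793 genes tested, 6.29% rose and 5.07% fell, against 5 and 2 of the 47 members tested. The shift of the standard subunits was broader than the calls. Of the 31, 29 had a log2 fold change above 0, and in 20 of them the lowest cold library exceeded the highest control, as was the case for 16.5% of all genes. Counted without adjustment, at a p of at most 0.05, 15 members were higher and 3 lower, against 13.8% and 14.1% of all genes. The median of all genes was -0.02. Because whole tissue was sequenced, a change in the number of cells of a type and in the RNA per cell cannot be told apart in any of these values.

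Psmb5, the catalytic subunit with chymotrypsin-like activity, measured 44.4, 47.3 and 47.7 CPM at 10 °C and 30.1, 32.4 and 31 CPM at 22 °C. The groups did not overlap. Its log2 fold change was 0.57 ± 0.10 (SE, n = 3 per group), a 1.49-fold rise with an adjusted p of 0.0092. Psmc4, an ATPase of the ring that unfolds substrates, measured 135, 169 and 149 CPM at 10 °C against 85.8, 93.9 and 104 CPM at 22 °C. Every cold library was above every control. It rose 1.60-fold (log2 0.68 ± 0.13, adjusted p = 0.0116), the largest rise among the members called in cold iBAT.

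Psmd10, a chaperone that helps to assemble the regulatory particle, had 20.1, 16.4 and 19.3 CPM at 10 °C and 12, 11.3 and 13 CPM at 22 °C. It rose 1.54-fold (log2 0.62 ± 0.13, adjusted p = 0.0204), with no overlap. Psmd7, a non-ATPase subunit of the lid of the regulatory particle, went from 44 ± 0.922 to 59.3 ± 4.11 CPM (SD, n = 3; log2 0.43 ± 0.10, adjusted p = 0.0295). Psmd12, another lid subunit, whose promoter is printed above, went from 76.4 ± 4.36 to 99.3 ± 5.56 CPM (log2 0.38 ± 0.10, adjusted p = 0.0487), close to the limit.

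The other catalytic subunits were not called. Psmb6 had a log2 fold change of 0.16 ± 0.10 (adjusted p = 0.335) and Psmb7 of 0.27 ± 0.12 (adjusted p = 0.169), although in both every cold library was the higher. The alpha ring held no call and had a median log2 fold change of 0.09, against 0.27 for the catalytic subunits, 0.21 for the ATPases, 0.23 for the non-ATPases and 0.34 for the regulatory particle chaperones. The chaperones of core assembly were at -0.06, and Psmf1, the inhibitor of the core particle, at -0.19 ± 0.12.

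**Figure D2:**
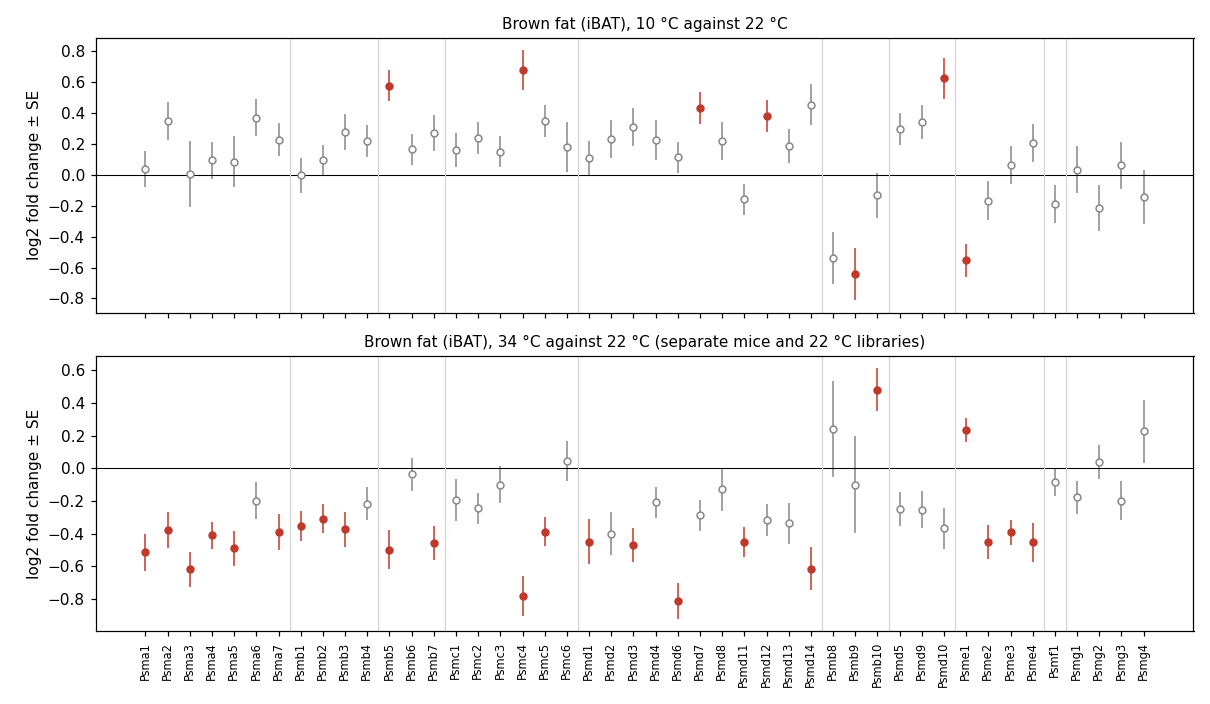
Log2 fold change ± SE of each tested proteasome gene in iBAT at 10 °C and at 34 °C (3 against 3 libraries in each, with no library in common), grouped by role, with red filled points at an adjusted p below 0.05. Most standard subunits are above zero at 10 °C and below zero at 34 °C, while Psmb9 and Psme1 fell at 10 °C and Psmb10 and Psme1 rose at 34 °C.

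The immunoproteasome and its activator had the opposite sign in cold iBAT. Psmb9 measured 8.16, 7 and 8.58 CPM at 10 °C and 12.9, 14 and 10.2 CPM at 22 °C. Every cold library was below every control, and Psmb9 fell to 0.641 of the control level (log2 -0.64 ± 0.17, adjusted p = 0.0418). The gene lies at chr17:34181987-34187764 on the minus strand (GRCm38) and shares 212 exon bases with Tap1 on the opposite strand, so the assignment of reads in the overlap is uncertain.

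Psme1, which with Psme2 forms a ring that opens the core particle and is induced by interferon, measured 41.5, 45.8 and 41.4 CPM at 10 °C and 57.7, 64.1 and 66.9 CPM at 22 °C. It fell to 0.681 of the control (log2 -0.55 ± 0.11, adjusted p = 0.0134), without overlap. Psmb8 measured 17.7, 13.3 and 11.4 CPM at 10 °C against 21.2, 21.6 and 19.2 CPM at 22 °C. The groups did not overlap, but its log2 fold change of -0.54 ± 0.17 did not pass (adjusted p = 0.0752). edgeR's exact test (adjusted p = 0.033) and DESeq2 (adjusted p = 0.048) did call it. Psmb10 had overlapping groups (log2 -0.13 ± 0.14, adjusted p = 0.594), as did Psme2 (log2 -0.17 ± 0.13, adjusted p = 0.426). The nuclear activators Psme3 and Psme4 were not called, with log2 fold changes of 0.06 ± 0.12 and 0.20 ± 0.12.

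Of the 10 genes of the antigen presentation list, which act with the immunoproteasome, 5 fell in cold iBAT and none rose. Of all genes, 5.07% fell and 6.29% rose. The list, like the others used here, was chosen with earlier results of these data known, so it is not independent of them. The 5 that fell were the peptide transporter Tap1 (log2 -0.72, adjusted p = 0.0231), the peptidase Erap1 (-0.64, adjusted p = 0.0081), the MHC class I light chain B2m (-0.59, adjusted p = 0.0215) and the transcription factors Nlrc5 (-0.58, adjusted p = 0.0299) and Irf1 (-0.46, adjusted p = 0.0309). The median log2 fold change of the list was -0.44.

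Of the 9 genes that control transcription of subunits, 1 rose, the small Maf protein gene Maff, from 5.52 ± 1.59 to 41.6 ± 17.1 CPM (log2 2.94 ± 0.34, adjusted p = 0.00134). Nfe2l1 itself measured 605, 619 and 629.8 CPM at 10 °C and 467, 564 and 729 CPM at 22 °C. The groups overlapped (log2 0.07 ± 0.17, adjusted p = 0.817). None of the 10 tested partners outside the name rule and none of the 15 ubiquitin and shuttle genes was called, whereas 1 of the 2 muscle ubiquitin ligases fell, Trim63 (log2 -1.33 ± 0.26, adjusted p = 0.0133).

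Several genes of other cells had levels that did not overlap between the temperatures. The summed level of 5 skeletal muscle markers, none of them called, was 5643 to 8148 CPM at 22 °C and 2220.4 to 4679 CPM at 10 °C. The hepatocyte gene Alb stood at 33.6 to 62.5 CPM in the 22 °C libraries and at 0 to 0.408 CPM in the cold ones. The sum of 3 epididymis markers was 0 in every control and 1.73 to 19.1 CPM at 10 °C, and 1 of them rose. That of 3 neutrophil precursor markers was 0.875 to 1.45 CPM at 22 °C and 0.204 to 0.593 CPM at 10 °C. The sum of 3 macrophage markers overlapped, with 58.6 to 69.9 CPM at 22 °C and 53.1 to 74.3 CPM at 10 °C, and so did that of 5 lymphocyte markers, with 2.25 to 3.97 and 2.47 to 3.94 CPM. The part of these cells in the changes above was not tested. Without cold replicate 3, or without control replicate 2, only 1 member was called. When libraries were scaled by their totals alone, the median of all genes moved to -0.18 and that of the standard subunits to 0.06, and 2 members were called higher and 3 lower.

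**Figure D3:**
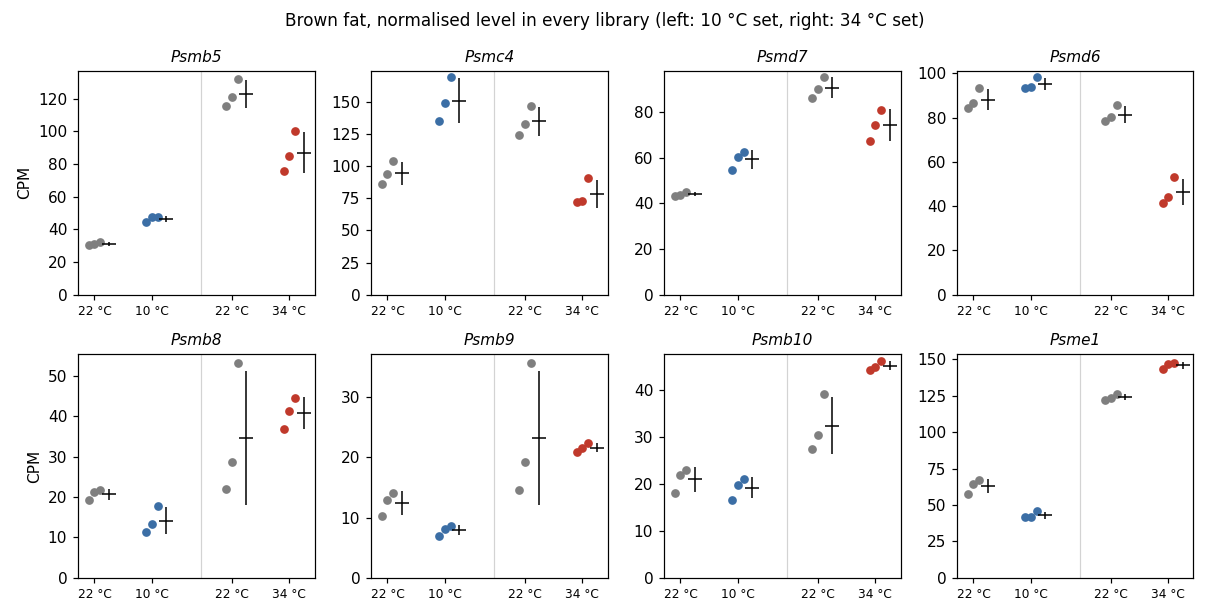
Normalised level in CPM of 8 proteasome genes in every iBAT library, ordered by value within a group, with bars at mean ± SD (n = 3), for the 10 °C set and the 34 °C set, each beside its own 22 °C libraries. Psmb5, Psmc4 and Psmd7 are higher at 10 °C than in their controls, Psmd6 is at 41.5 to 53.1 CPM at 34 °C against 78.3 to 85.6 CPM in its controls, and Psme1 is lower at 10 °C and higher at 34 °C.

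In ingSAT at 10 °C, 10 members rose and none fell, among 4.61% of all 13977 genes tested that rose and 2.9% that fell. With p at most 0.05 and no adjustment, 20 members were higher and 1 lower, against 12.9% and 15% of all genes. The alpha ring held 4 of the calls among its 7 subunits. The others were Psmb3 of the beta ring, the catalytic Psmb7, the ATPase Psmc6, the lid subunits Psmd6 and Psmd14, and the chaperone Psmd5. The alpha ring had a median log2 fold change of 0.58 and the catalytic subunits 0.67, while the ATPases were at -0.03 and the non-ATPases at 0.12.

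Psmc6 had the largest fold change of those called, with 179, 174 and 168 CPM at 10 °C against 79.7, 80.2 and 128 CPM at 22 °C (log2 0.86 ± 0.20, adjusted p = 0.0483). One control stood well above the other two but below every cold library. Psma3, a subunit of the alpha ring, measured 40.1, 48.9 and 44 CPM at 10 °C and 25.9, 22.5 and 29.6 CPM at 22 °C. It rose 1.71-fold (log2 0.77 ± 0.14, adjusted p = 0.0276), without overlap. Psmb7, the catalytic subunit with trypsin-like activity, measured 104, 93.2 and 92.9 CPM at 10 °C against 62.6, 59.1 and 60.8 CPM at 22 °C. The groups were far apart for their spread (log2 0.67 ± 0.10, adjusted p = 0.0146).

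The other risers in ingSAT had log2 fold changes of 0.72 for Psma1, 0.69 for Psmb3, 0.60 for Psma4, 0.58 for Psma6, 0.56 for the chaperone Psmd5, 0.53 for Psmd14, which removes ubiquitin chains from substrates, and 0.53 for Psmd6. Their adjusted p-values ran from 0.0141 for Psmb3 to 0.0464 for Psmd14. Psma4 shares 114 exon bases with a gene on the opposite strand, and Psmb7 shares exon bases with Nek6. Psmb5 had a fold change as large as these but did not pass: it measured 37.8, 33.5 and 32.7 CPM at 10 °C and 24.3, 24.3 and 15.7 CPM at 22 °C (log2 0.70 ± 0.19, adjusted p = 0.0694). Psmb6 overlapped between temperatures (log2 0.17 ± 0.12, adjusted p = 0.377).

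The immunoproteasome subunits were not called in ingSAT, with log2 fold changes of -0.27 ± 0.12 for Psmb8, -0.07 ± 0.18 for Psmb9 and -0.30 ± 0.12 for Psmb10. Psmb10 was the one whose groups did not overlap, with 38.7, 40.1 and 37 CPM at 10 °C against 53.5, 46.3 and 42.8 CPM (unadjusted p = 0.0417, adjusted p = 0.163). The activators had -0.03 ± 0.13 for Psme1, 0.37 ± 0.13 for Psme2, 0.13 ± 0.12 for Psme3 and 0.45 ± 0.13 for Psme4, and none was called.

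Among the companion genes, Txnl1, whose thioredoxin-like product binds the regulatory particle, rose in ingSAT (log2 0.55, adjusted p = 0.0283), as did Maff (log2 1.30, adjusted p = 0.0311). The polyubiquitin gene Ubb fell (log2 -0.65, adjusted p = 0.0147), and so did Ubqln2, which carries ubiquitinated proteins to the proteasome (log2 -1.25, adjusted p = 0.0216). Nfe2l1 was not called (log2 -0.15 ± 0.16, adjusted p = 0.557), nor was any of the 10 antigen presentation genes. Over all genes with transcripts of up to 2282 bases the median log2 fold change in ingSAT was 0.11, and over those of 3930 bases or more -0.10. Among the 31 standard subunits the rank correlation of fold change with transcript length was -0.30, a description over genes measured in the same libraries. The part of length in these values was not tested.

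Without cold replicate 2, cold replicate 3, control replicate 1 or control replicate 2, no member was called in ingSAT, without cold replicate 1 there were 3 calls and without control replicate 3 there were 16. With the replicate number as a block, edgeR called 0 members, with 17 at an unadjusted p of at most 0.05. Summed lymphocyte markers ran from 8.94 to 334 CPM at 10 °C and from 28 to 156 CPM at 22 °C, and skeletal muscle markers from 24.9 to 1599 CPM and from 1047 to 2679 CPM. Neutrophil precursor markers summed to 17.6 to 35.2 CPM at 22 °C and 5.18 to 10.7 CPM at 10 °C, without overlap, and 1 of the 3 fell. Macrophage markers summed to 241 to 567 and 170.2 to 251 CPM. The brown fat gene Ucp1 was at 8.29 CPM on average at 22 °C and at 1329 CPM at 10 °C. The part of cell content in the changes was not tested.

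In pgVAT at 10 °C no member was called, and the quasi-likelihood test called 0% of all genes in either direction. edgeR's exact test called 0.0942% of all genes higher and 0.175% lower, DESeq2 0.558% and 0.498%, and neither called a member. Before adjustment (p of at most 0.05), 2 members were higher and 0 were lower, against 4.58% and 3.57% of all genes. Psmd5 had the smallest p, with 43.6 ± 8.47 CPM at 22 °C and 71.8 ± 6.76 CPM at 10 °C (log2 0.71 ± 0.22, adjusted p = 0.593). Psmb5 measured 19.9, 28.1 and 41.6 CPM at 10 °C and 18.7, 18.8 and 15.4 CPM at 22 °C (log2 0.75 ± 0.31, adjusted p = 0.593). The cold libraries spread widely but each was above every control. Summed epididymis markers ran from 1.48 to 10237 CPM among the cold libraries and from 328 to 2514 CPM among the controls. Lymphocyte markers summed to 9.81 to 16 CPM at 22 °C and 2.69 to 6.47 CPM at 10 °C, and neutrophil precursor markers to 11.2 to 15.1 and 3.54 to 7.46 CPM, neither with overlap. The part of these cells in the values of pgVAT, including the shares given below, was not tested.

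The differences between fat depots were tested directly, as the 10 °C response of one depot minus that of another in a single model. No member was called in any of the 3 contrasts. The background was 0.0138% higher and 0.0553% lower for iBAT against ingSAT, 0.284% and 0.124% for iBAT against pgVAT, and 0.159% and 0% for ingSAT against pgVAT. Counted without adjustment, at a p of at most 0.05, the members higher and lower in the first depot were 1 and 3 for iBAT against ingSAT (6.04% and 4.83% of all genes), 2 and 0 for iBAT against pgVAT (7.55% and 8.24%) and 1 and 0 for ingSAT against pgVAT (5.6% and 9.63%). For iBAT against ingSAT the smallest p was that of the ATPase gene Psmc5 (difference 0.56 ± 0.18, unadjusted p = 0.00787, adjusted p = 0.273). For ingSAT against pgVAT, the smallest p was that of Psmb3 (difference 0.56 ± 0.15, unadjusted p = 0.0026, adjusted p = 0.144). The median difference over the standard subunits was -0.04 for iBAT against ingSAT, 0.07 for iBAT against pgVAT and 0.05 for ingSAT against pgVAT. DESeq2 called Psmb3 for ingSAT against pgVAT (difference 0.54, adjusted p = 0.0267). Without pgVAT cold replicate 2, edgeR called Psmd7 for iBAT against pgVAT (difference 0.91, adjusted p = 0.00451), and Psmd11 (0.66, adjusted p = 0.0269) and Psmd10 (-0.81, adjusted p = 0.0292) for ingSAT against pgVAT. A difference between the depots thus rests on the tool or on that library.

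In iBAT at 34 °C, 21 members fell and 2 rose, among 15.4% of all 12318 genes tested that fell and 13.5% that rose. The fall took in 6 of the 7 alpha ring subunits, 3 of 4 of the beta ring, 2 of the 3 catalytic subunits, 2 of the 6 ATPases, 5 of the 11 non-ATPases and 3 of the 4 activators. Of the 31 standard subunits, 30 had a log2 fold change below 0, and in 25 every 34 °C library was below every control, as was the case for 24.6% of all genes. With p at most 0.05 and no adjustment, 28 members were lower and 2 higher, against 21.8% and 21.6% of all genes. The median of the standard subunits was -0.38 and that of all genes 0.02.

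Psmd6, a lid subunit, fell most. It measured 41.5, 53.1 and 44.3 CPM at 34 °C and 78.3, 85.6 and 80 CPM at 22 °C (log2 -0.81 ± 0.11, adjusted p = 0.00313). The warm level was 0.570 of the control, and the groups were wide apart. Psmc4, which had risen most in the cold, measured 71.9, 91.1 and 72.6 CPM at 34 °C against 133, 147 and 124 CPM at 22 °C (log2 -0.78 ± 0.12, adjusted p = 0.00526). Psmb5 measured 75.5, 100.2 and 84.9 CPM against 121, 132 and 115 CPM, again without overlap (log2 -0.50 ± 0.12, adjusted p = 0.0214).

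Among the others, Psma3 had a log2 fold change of -0.62 (adjusted p = 0.00699), Psmd14 of -0.61 (0.0155), Psma1 of -0.51 (0.0157), Psma5 of -0.49 (0.0159), Psmd3 of -0.47 (0.0165) and the catalytic Psmb7 of -0.46 (0.0178). Psmb6, the catalytic subunit with caspase-like activity, overlapped between temperatures, with 176 ± 1.41 CPM at 22 °C and 172 ± 18 CPM at 34 °C (log2 -0.04 ± 0.10, adjusted p = 0.805). Psmc6 was the 1 standard subunit above 0. The activators Psme2 (log2 -0.45 ± 0.10, adjusted p = 0.0183), Psme3 (log2 -0.39 ± 0.08, adjusted p = 0.0113) and Psme4 (log2 -0.45 ± 0.12, adjusted p = 0.0287) fell.

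The 2 members that rose in warm iBAT were Psmb10 and Psme1, whereas Psme2, the ring partner of Psme1, fell. Psmb10 measured 44.9, 46.2 and 44.3 CPM at 34 °C and 30.5, 39.1 and 27.5 CPM at 22 °C (log2 0.48 ± 0.13, adjusted p = 0.0325). Psme1 measured 143, 147 and 148 CPM against 124, 126 and 122 CPM (log2 0.24 ± 0.07, adjusted p = 0.0493). In both, every warm library was above every control, and the call of Psme1 lay close to the limit. Psmb8 and Psmb9 were not called, and 1 control library stood high in both. Psmb8 had 22, 53.3 and 28.5 CPM at 22 °C against 44.6, 41.4 and 36.7 CPM at 34 °C (log2 0.24 ± 0.30, adjusted p = 0.567), and Psmb9 had 14.5, 35.7 and 19.2 CPM against 21.6, 22.3 and 20.9 CPM (log2 -0.10 ± 0.30, adjusted p = 0.824).

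Outside the name rule, Adrm1, a ubiquitin receptor of the regulatory particle, fell in warm iBAT from 116 ± 13.8 to 70.5 ± 14.6 CPM (log2 -0.71 ± 0.16, adjusted p = 0.0169), and 1 of the 10 tested partners rose, Zfand5 (log2 0.48 ± 0.13, adjusted p = 0.0301). Of 15 ubiquitin and shuttle genes, 4 fell and 1 rose. The cofactor of the unfoldase Vcp, Nploc4, had a log2 fold change of -0.64 (adjusted p = 0.0057), and the shuttle gene Ubqln1 of -0.44 (adjusted p = 0.0139). Ubqln2 rose (log2 0.41, adjusted p = 0.0218).

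Of the 9 transcription control genes, 3 rose in warm iBAT and none fell: Mafk (log2 1.43, adjusted p = 0.00446), Maff (1.42, adjusted p = 0.0386) and Bach1, a repressor that binds with small Maf proteins (0.46, adjusted p = 0.0148). Nfe2l1 measured 533, 641 and 569 CPM at 34 °C and 654, 667 and 647 CPM at 22 °C. Every warm library was below every control, but it was not called (log2 -0.17 ± 0.10, adjusted p = 0.22). None of the 10 antigen presentation genes was called.

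With library totals alone as the scale, the median of all genes in warm iBAT moved to 0.30 and that of the standard subunits to -0.11, so the standard subunits lay 0.41 below the median of all genes, and 4 members were called lower and 2 higher. Without control replicate 3 there were 9 calls and without warm replicate 1 there were 10. The sum of 3 macrophage markers was 32.7 to 50.8 CPM at 22 °C and 61.4 to 91.4 CPM at 34 °C, without overlap, and 1 of the 3 rose. Skeletal muscle markers summed to 2.79 to 4228 CPM at 22 °C and 893 to 3307 CPM at 34 °C. Ucp1 was at 6674 CPM on average at 22 °C and at 1395 CPM at 34 °C (log2 -2.26 ± 0.20, adjusted p = 0.00107). The part of cell content in the changes was not tested.

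The comparisons of iBAT at 10 °C and at 34 °C share no library. Of the 31 standard subunits, 28 were above 0 at 10 °C and below 0 at 34 °C (90.3%), against 29.4% of the 11149 genes tested in both. Called at both temperatures were 3 members, Psmb5, Psmc4 and Psme1, which are 42.9% of the members called at 10 °C and 13% of those called at 34 °C. Over all genes tested in both these shares were 40.9% and 15.6%, and the members called at both are 6.38% of the members against 4.58% of all genes. Psmb5 and Psmc4 rose at 10 °C and fell at 34 °C, and Psme1 fell at 10 °C and rose at 34 °C.

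Since each immunoproteasome subunit replaces a standard one, the balance within each pair was measured as a share, for example Psmb8 in the sum of Psmb8 and Psmb5, in CPM per kilobase of transcript. At 22 °C, in the table of 8 tissues, the Psmb8 share was highest in spleen (85.1 ± 3.57%) and ileum (83.3 ± 2.18%). It was 70.9 ± 3.42% in ingSAT, 51.4 ± 4.42% in pgVAT, 36.1 ± 2.23% in liver, 26.8 ± 1.28% in iBAT, 10.9 ± 7.95% in brain, where 1 library stood apart, and 8.99 ± 0.607% in hypothalamus (SD, n = 3). Spleen and ileum overlapped, and so did brain and hypothalamus, while the other neighbours in this order did not.

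The Psmb8 share was lower at 10 °C in all 3 fat depots, in every library. In iBAT it was 11.7, 13.5 and 18.1% at 10 °C against 25.5, 26.9 and 28% at 22 °C. In ingSAT it was 51.1, 56.1 and 58.2% against 67.9, 70.2 and 74.6%. In pgVAT it was 29.1, 37 and 48.6% against 48.8, 48.9 and 56.5%. The gap was wide in iBAT and ingSAT and much smaller than the spread in pgVAT. The difference of the means in pgVAT was -13.2 percentage points, or -8.59 without cold replicate 3 and -18.4 without cold replicate 2. With 3 libraries per group a two-sided exact permutation test cannot give less than 0.1, which is what it gave in each of these depots (adjusted p = 0.436 over 48 comparisons of shares). A share also falls when Psmb5 rises, and Psmb8 itself was called in none of these depots. In pgVAT Psmb8 overlapped between temperatures (log2 -0.05 ± 0.35), and Psmb5 had a log2 fold change of 0.75 ± 0.31. In ingSAT the values were -0.27 ± 0.12 for Psmb8 and 0.70 ± 0.19 for Psmb5.

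At 34 °C the Psmb8 share in iBAT was higher in every library, with 18.6, 19.3 and 24.6% against 9.12, 12 and 18.2% at 22 °C. The Psmb10 share, in the sum of Psmb10 and Psmb7, was 18.4 ± 1.49% at 34 °C and 10.4 ± 1.30% at 22 °C in iBAT. In ingSAT at 10 °C it was 26.1 ± 1.41% against 40.8 ± 2.34%. The groups did not overlap in either. The Psmb9 share, in the sum of Psmb9 and Psmb6, was 3.02 ± 0.264% at 10 °C against 5.19 ± 0.804% at 22 °C in iBAT and 5.93 ± 1.76% against 9.13 ± 0.159% in pgVAT, also without overlap. Without the division by length these 2 differences, -2.17 and -3.20 percentage points, were -3.47 and -4.91. Each of these had an exact permutation p of 0.1, the smallest possible. The Psmb10 share of iBAT and pgVAT at 10 °C and the Psmb9 share of ingSAT at 10 °C and of iBAT at 34 °C overlapped.

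**Figure D4:**
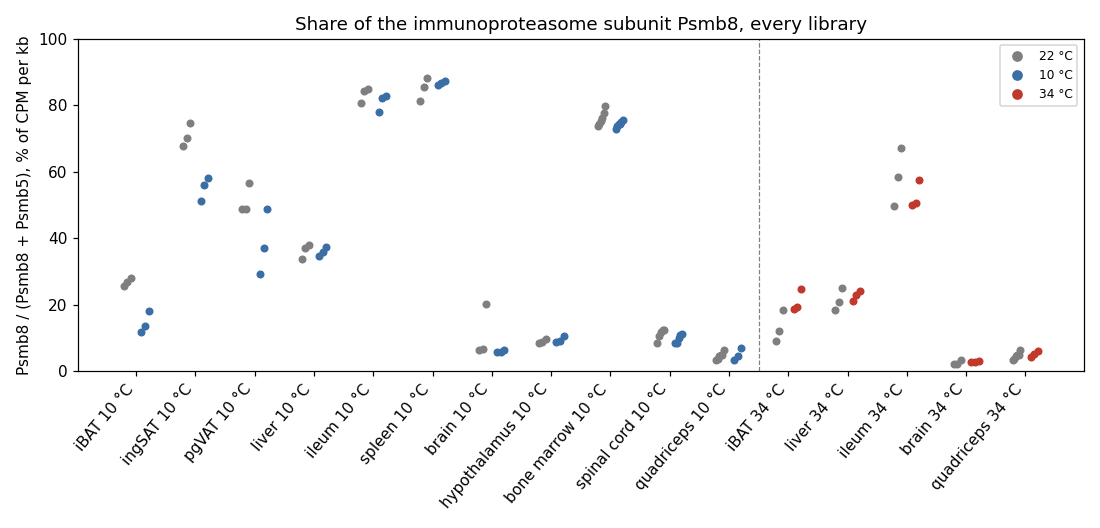
Share of Psmb8 in the sum of Psmb8 and Psmb5 (percent, from CPM per kilobase) in every library of each comparison, by temperature. In iBAT, ingSAT and pgVAT the 10 °C libraries lie below their controls, in iBAT the 34 °C libraries lie above theirs, and in the other comparisons the groups overlap.

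Bone marrow had 6 libraries per group, and its changes were small. At 10 °C, 5 members rose and 2 fell, among 7.33% of all 12525 genes that rose and 11.6% that fell. None of these 7 changed by more than 1.5-fold. Before adjustment (p of at most 0.05), 11 members were higher and 4 lower, against 15% and 18% of all genes. Both members that fell after adjustment were immunoproteasome subunits. Psmb8 ran from 98 to 106 CPM with a median of 100 at 10 °C and from 101 to 121 CPM with a median of 116 at 22 °C (log2 -0.18 ± 0.04, adjusted p = 0.0147). Psmb9 ran from 41 to 47.9 CPM with a median of 43.1 at 10 °C and from 43 to 58.5 CPM with a median of 51.7 at 22 °C (log2 -0.24 ± 0.06, adjusted p = 0.0177). The groups overlapped in both. Psmb10 did not pass (log2 -0.12 ± 0.04, adjusted p = 0.0808), nor did Psme1 (log2 -0.13 ± 0.05, adjusted p = 0.0659). The Psmb9 share was 23.8 ± 1.20% at 10 °C and 27.8 ± 2.26% at 22 °C (exact permutation p = 0.0108, adjusted p = 0.312).

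The risers in bone marrow were the chaperone Psmd9 (log2 0.27 ± 0.07, adjusted p = 0.0161), the inhibitor Psmf1 (log2 0.23 ± 0.06, adjusted p = 0.0152), the lid subunit Psmd3 (log2 0.18 ± 0.05, adjusted p = 0.0161), the nuclear activator Psme3 (log2 0.18 ± 0.05, adjusted p = 0.0309) and Psmd1, the scaffold at the base of the regulatory particle (log2 0.13 ± 0.04, adjusted p = 0.0411). Psmf1 ran from 129 to 167 CPM with a median of 142 at 10 °C and from 108 to 129 CPM with a median of 124 at 22 °C. Psmd3 ran from 126 to 142 CPM with a median of 133 at 10 °C and from 104 to 124 CPM with a median of 119.8 at 22 °C. In both of these genes every cold library was above every control. No alpha ring subunit and no beta ring subunit without a catalytic site was called, and their medians were 0.03 and 0.02. Psmb5 was at 19.3 ± 1.09 CPM at 10 °C and 19.6 ± 2.03 CPM at 22 °C.

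Of the 10 antigen presentation genes, a list chosen with earlier results of these data known, 5 fell in bone marrow and none rose. The share of all genes that fell there is given above. Among the 5 were Nlrc5 (log2 -0.27, adjusted p = 0.0367), H2-D1, an MHC class I heavy chain (-0.23, adjusted p = 0.0316), Tap1 (-0.22, adjusted p = 0.028) and B2m (-0.22, adjusted p = 0.0367). Of the 10 tested partners, 2 rose and 1 fell, Sem1, a small subunit of the lid (log2 -0.19, adjusted p = 0.0405). Of the 15 ubiquitin and shuttle genes, 2 rose. Mafk rose (0.17, adjusted p = 0.0123), and Nfe2l1 was not called (log2 0.00 ± 0.03, adjusted p = 0.989).

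The sum of 5 lymphocyte markers in bone marrow was 332 to 458 CPM at 22 °C and 462 to 532 CPM at 10 °C, without overlap, and 3 of the 5 rose. That of 3 neutrophil precursor markers was 2686 to 3445 and 2413 to 2853 CPM, and Prtn3 among them fell (log2 -0.31). That of 3 macrophage markers was 367 to 469 and 352 to 396 CPM, and Csf1r among them fell (log2 -0.22). The part of cell content in the changes was not tested. With the replicate number as a block edgeR called 3 members, and with 1 library left out in turn it called 5 to 10.

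In ileum at 10 °C no member was called, with 0.0497% of all genes called higher and 0.0142% lower, but 20 members were higher and 1 lower at an unadjusted p of at most 0.05, against 10% and 7.12% of all genes. Of the standard subunits, 30 of 31 were above 0. The smallest p-values were those of Psmb3, with 25 ± 2.31 CPM at 22 °C and 34.8 ± 1.80 CPM at 10 °C (log2 0.48 ± 0.09, adjusted p = 0.0963), Psmd6 (log2 0.35 ± 0.08, adjusted p = 0.11) and Psmd5 (log2 0.33 ± 0.08, adjusted p = 0.132). The catalytic subunits had log2 fold changes of 0.26 ± 0.10 for Psmb5, 0.26 ± 0.10 for Psmb6 and 0.32 ± 0.10 for Psmb7. edgeR's exact test called 2 members higher, against 1.87% of all genes higher and 0.49% lower. DESeq2 called 3 members higher, against 2.97% and 1.05% of all genes. The immunoproteasome subunits had 0.04 ± 0.15 for Psmb8, 0.03 ± 0.15 for Psmb9 and 0.19 ± 0.10 for Psmb10. Macrophage markers summed to 79 to 97.9 CPM at 22 °C and 65.7 to 72.9 CPM at 10 °C, and skeletal muscle markers to 26.5 to 32.9 and 35.9 to 105 CPM, both without overlap and with no marker called, and their part was not tested. As in ingSAT, short genes had the higher fold changes, with a median of 0.08 up to 2262 bases and -0.08 from 3923 bases, and the part of length was not tested.

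In liver at 10 °C the quasi-likelihood test called 0% of all genes in either direction. edgeR's exact test called 1.07% of all genes higher and 2.83% lower, none of them a member. Of the members, 6 were higher and 1 lower at an unadjusted p of at most 0.05, against 7.99% and 10.6% of all genes. The lid subunit Psmd11 had the smallest p, with 91.8 ± 13.9 CPM at 22 °C and 70.2 ± 4.61 CPM at 10 °C (log2 -0.39 ± 0.11, adjusted p = 0.134). DESeq2 called 1 member lower, against 1.22% of all genes higher and 3.23% lower. Of the catalytic subunits Psmb5 had a log2 fold change of 0.10 ± 0.08, Psmb6 of 0.14 ± 0.09 and Psmb7 of 0.04 ± 0.07. Psmb8, Psmb9 and Psmb10 had 0.09 ± 0.11, 0.20 ± 0.11 and 0.19 ± 0.14.

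In spleen at 10 °C no member was called, with 0% of all genes called higher and 0.0779% lower. The standard subunits lay below 0 in 30 of 31 cases, and in 12 every cold library was below every control, as in 8.47% of all genes. Psmd4, a ubiquitin receptor of the regulatory particle, had the smallest p (log2 -0.28 ± 0.09, adjusted p = 0.485). Counted without adjustment, at a p of at most 0.05, 5 members were lower and 0 higher, against 6.36% and 3.64% of all genes. Psmb8, with 210 ± 15.1 CPM at 22 °C and 222 ± 17.5 CPM at 10 °C, Psmb9 and Psmb10 had log2 fold changes of 0.08 ± 0.09, 0.06 ± 0.10 and 0.06 ± 0.08. Neutrophil precursor markers summed to 30.4 to 52.5 CPM at 22 °C and 3.49 to 8.68 CPM at 10 °C, without overlap, and 1 of the 3 fell. Pancreas acinar markers ran from 0.629 to 1181 CPM among the controls and from 1.62 to 2361 CPM among the cold libraries, and lymphocyte and macrophage markers overlapped. The part of these cells in the spleen values was not tested.

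In brain at 10 °C control replicate 2 stood apart. It was above every other library in 41 of the 47 members tested, and its summed standard subunits were at 4040 CPM against 3248 and 3292 CPM in the other controls. In 9 members it was over 1.5 times the highest of the other libraries, namely Psma1, Psma4, Psmb8, Psmb9, Psmd11, Psme1, Psme2, Psme4 and Psmg1. Psme4 measured 70.9, 285 and 63.5 CPM in the controls, Psmd11 31.4, 93.5 and 31.2 CPM, and Psmb10 34.5, 35.4 and 38.7 CPM. With all libraries, the antigen presentation genes had a median log2 fold change of -1.26. The cause of these levels was not tested. Psmb8 measured 4.67, 19.3 and 4.62 CPM at 22 °C against 4.22, 4.05 and 3.78 CPM at 10 °C, and Psmb9 1.94, 9.23 and 1.75 CPM against 1.45, 1.88 and 1.03 CPM. Psme1 measured 27.4, 59.9 and 28.1 CPM in the controls. That library was the highest of the controls in Psmb8, Psmb9 and Psme1. The log2 fold change of Psmb8 was -1.24 ± 0.62 (adjusted p = 0.706) with it and -0.21 without it. All 31 standard subunits were below 0, with a median of -0.19, or -0.08 without the library, when 27 of 31 were below 0. With p at most 0.05 and no adjustment, there were 0 members, against 1.06% higher and 2.82% lower of all genes. No gene was called with it (0% in either direction), and without it 17 of 13975 genes were called, 0 of them members.

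In the other nervous tissues and in muscle no member was called at 10 °C. The background of called genes was 0% in hypothalamus in either direction, 0.00695% higher and 0% lower in spinal cord, and 0.279% higher and 0.0592% lower in quadriceps. In hypothalamus 1 member had an unadjusted p of at most 0.05, Psmg2, a chaperone of core assembly (log2 -0.22 ± 0.09, adjusted p = 0.799), against 3.5% higher and 2.67% lower of all genes. In spinal cord there were 5, led by Psmd4 (log2 0.16 ± 0.06, adjusted p = 0.78), against 2.82% higher and 2.96% lower of all genes. In quadriceps there were 0, against 7.36% and 4.74% of all genes. Psmb5 there measured 69.5 ± 1.68 CPM at 10 °C (n = 3) and 74.2 ± 12.3 CPM at 22 °C (n = 6), and a difference was not detectable beyond that spread. With only the control columns whose header shares the prefix of the treated ones, no member was called at 10 °C or 34 °C, and the median of the standard subunits was -0.15 and 0.03. Scaling by library totals turned the median at 10 °C from -0.10 to 0.06, with all genes at 0.16.

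At 34 °C, outside iBAT, no member was called. In liver, where 0.116% of all genes were called higher and 0.268% lower, all 31 standard subunits were below 0, and in 21 every warm library was below every control, as in 8.44% of all genes. Before adjustment (p of at most 0.05), 9 members were lower and 0 higher, against 5.21% and 6% of all genes. Psmc4 had the smallest p (log2 -0.31 ± 0.08, adjusted p = 0.215), followed by Psmd13 of the lid (log2 -0.27 ± 0.08, adjusted p = 0.229). Psmb5 measured 54.2, 51.7 and 58.9 CPM at 34 °C and 63.3, 63.2 and 62.6 CPM at 22 °C. The groups did not overlap (log2 -0.20 ± 0.08, adjusted p = 0.423). In ileum and brain the called share of all genes was 0% in either direction, and the median log2 fold changes of the standard subunits were 0.00018 and -0.02. Counted without adjustment, at a p of at most 0.05, there was 1 member in ileum, Psmd3 (log2 -0.16 ± 0.07, adjusted p = 0.594), against 4.51% higher and 3.24% lower of all genes, and 0 in brain, against 1.22% and 1.42%. In quadriceps, also with 0% called in either direction, 1 member, Psmc3ip, reached an unadjusted p of at most 0.05 (log2 0.46 ± 0.18, adjusted p = 0.848), against 2.81% higher and 2.56% lower of all genes.

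Nfe2l1 was called in none of the 16 comparisons, with log2 fold changes between -0.70 and 0.07. Its lowest adjusted p was 0.22, in iBAT at 34 °C, and its largest fold change was in pgVAT, where it measured 250.3, 456 and 319 CPM at 10 °C and 469, 596 and 601 CPM at 22 °C (log2 -0.70 ± 0.34, adjusted p = 0.598). Every cold pgVAT library was below every control.

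Levels per length were compared within the table of 8 tissues at 22 °C. The median standard subunit lay between 50.8 CPM per kilobase in pgVAT and 67.6 CPM per kilobase in brain. The sum of the 3 immunoproteasome subunits varied far more, from 22.2 CPM per kilobase in hypothalamus and 34.4 in brain to 246 in ileum and 273 in spleen. Psmb8 alone measured 129 ± 12.8 CPM per kilobase in spleen, 89.4 ± 11.4 in ileum, 57.1 ± 3.06 in ingSAT, 21.3 ± 4.13 in pgVAT, 16.3 ± 2.28 in liver, 13.4 ± 1.13 in iBAT, 5.01 ± 3.39 in brain and 2.20 ± 0.259 in hypothalamus (SD, n = 3). In this order pgVAT overlapped with liver and liver with iBAT, and the other neighbours did not overlap. Psmb5 was highest in brain (42 ± 5.73 CPM per kilobase) and iBAT (36.6 ± 0.849), which overlapped, and lowest in ileum (17.8 ± 1.69).

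The tissue-restricted subunits were at or near zero. Psma8, the alpha subunit of the testis, reached 1.07 ± 0.174 CPM per kilobase in spleen at 22 °C and 1.06 ± 0.132 in bone marrow at 10 °C and was not called there (log2 -0.28 ± 0.26 and 0.13 ± 0.17). Psmb11, the catalytic subunit of the thymus, was counted at most 7 times in any library, and its count was 0 in every library of bone marrow, quadriceps and the warm sets of iBAT and liver. Psmc3ip had its highest levels in bone marrow, with 15.3 ± 1.40 CPM at 22 °C and 15.6 ± 1.65 CPM at 10 °C, and was called nowhere.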

How the data were processed

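RNA was sequenced from bulk tissue, and the deposited tables hold raw read counts per gene that the authors made from reads aligned to mm10. The submitters' processing notes name STAR 2.5.3a, Picard 1.141 and HTSeq 0.6p1. Counts per gene were used as deposited. Each comparison kept those genes whose log2 CPM averaged more than 0. TMM factors were computed, and edgeR 4.0.16 in R 4.3.3 gave two-sided quasi-likelihood p-values, adjusted by Benjamini-Hochberg over all genes tested. The CPM values printed use the TMM factors, and values per kilobase divide them by the length of the principal transcript (GENCODE M21). DESeq2 1.42.0, edgeR's exact test, scaling by library totals, other filters, unadjusted p-values and leaving out each library were alternatives. The scripts were tested on simulated counts, in a single draw per setting with a change given to few of the genes. At the spread of ingSAT no gene given a change was called and the call made was of an unchanged gene. At that of iBAT the share of false calls exceeded the adjusted p limit, and at those of ileum and bone marrow it did not. Shares were compared by two-sided exact permutation tests over libraries. The members and lists were chosen with earlier results of these data known. Named were up to 12 called members in a comparison, otherwise those with the smallest p, with the catalytic, immunoproteasome, activator and tissue-restricted genes, up to 8 called companion genes and Nfe2l1. Some called companion genes are counted but not reported here by name. In the 10 comparisons at 10 °C other than quadriceps, libraries with the same replicate number did not deviate together in every pair, so the numbers were not used to pair them. The other columns could be assigned to a group only, so pairing was not examined there. Quadriceps columns were assigned to their groups by header, and 1 spinal cord column likewise.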

Additional observations from a re-analysis of the deposited data

Results flagged for a closer look

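In groups of 4 to 10 libraries, 55 sets of values were examined for a library far from the others, and 10 were found. For a single set chance gives about 1 in 20. All 10 came from 1 spinal cord and 1 quadriceps library. Values of the same library are not independent, so the count was not compared with chance. In spinal cord at 10 °C, replicate 4 stood apart in 5 genes. It had 6.43 CPM of Psmb8 (others 3.95 to 4.64), 42.0 CPM of Psmb10 (27.3 to 29.9) and 31.3 CPM of the activator Psme1 (21.3 to 23.5). It was the lowest of its group for Psme2, with 8.39 CPM (9.53 to 9.94), and for Psme3, with 98.4 CPM (114 to 119).

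In quadriceps at 22 °C, library 1 was above the other 5. The standard subunits summed to 4486 CPM there and to 3499 to 3731 CPM in the others. Psmb5 was at 97.6 CPM (61.5 to 74.0), Psmb6 at 171 CPM (116 to 135), Psmb7 at 234.0 CPM (184 to 198) and Psme1 at 53.7 CPM (36.2 to 41.8).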

How the results depend on the processing

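No direction was reversed among called genes, and the cause of the changes below was not tested. With DESeq2, 11 members were called in iBAT at 10 °C, 1 in liver at 10 °C, 3 in ileum at 10 °C and 1 in the difference between ingSAT and pgVAT, and edgeR's exact test called 2 in ileum. Scaled by library totals, the median of the standard subunits at 10 °C was 0.0614 in iBAT, 0.0378 in liver, -0.0465 in brain and 0.0617 in quadriceps, and at 34 °C it was -0.11 in iBAT, with 6 calls, and -0.21 in liver. The median of all genes on that scale was -0.18, -0.05, 0.10 and 0.16 in these tissues at 10 °C, and 0.30 and -0.06 at 34 °C. At an unadjusted p of at most 0.05 there were 18 members in iBAT, 21 in ingSAT, 2 in pgVAT, 7 in liver, 21 in ileum, 5 in spleen, 1 in hypothalamus, 15 in bone marrow and 5 in spinal cord at 10 °C, and 9 in liver, 1 in ileum and 1 in quadriceps at 34 °C. With a fold above 1.5 as well there were 3 in iBAT, 2 in pgVAT and 0 in bone marrow at 10 °C and 4 in iBAT at 34 °C. No share of all genes was set beside the counts under this fold rule or under library totals. With the replicate block, a fit with the replicate number as a term, 0 members were called in ingSAT and 3 in bone marrow, and the numbers do not pair the libraries.

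Leaving out 1 library in turn gave 1 to 7 calls in iBAT, 0 to 16 in ingSAT, 0 to 1 in pgVAT, 0 to 1 in liver and 5 to 10 in bone marrow at 10 °C, and 9 to 20 in iBAT at 34 °C. It gave 0 to 1 in the difference between iBAT and pgVAT, and 0 to 2 in that between ingSAT and pgVAT, and 0 elsewhere. The median of the standard subunits then ran from 0.19 to 0.27 in iBAT, 0.24 to 0.32 in ingSAT, 0.05 to 0.37 in pgVAT, 0.07 to 0.13 in liver, 0.18 to 0.27 in ileum, -0.21 to -0.06 in spleen, -0.26 to -0.08 in brain, -0.04 to -0.0017 in hypothalamus, 0.02 to 0.06 in bone marrow, 0.03 to 0.08 in spinal cord and -0.14 to -0.04 in quadriceps at 10 °C. At 34 °C it ran from -0.44 to -0.29 in iBAT, -0.15 to -0.11 in liver, -0.03 to 0.03 in ileum, -0.07 to 0.01 in brain and -0.04 to 0.04 in quadriceps. The planned subsets of the quadriceps controls by title number were not run, because the columns do not carry those numbers, and subsets by header prefix were chosen after seeing the data. The lowest depth, 4262403 counts, was in pgVAT.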
